A study of Drosophila melanogaster with 6 samples.

Results

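The aminoacyl-tRNA synthetases are described here in the testis of Drosophila melanogaster males without a working Zeus gene. The genes were taken by symbol, as the table names them: the code of an amino acid followed by RS, with the suffix -m for the mitochondrial enzymes. This gave 33 of the 11491 genes listed, of which 18 are cytosolic and 15 are mitochondrial. Poly(A) RNA of whole testes from adult flies was sequenced from Zeus KO (3 libraries) and from a control injection line (3 libraries) that the sample labels call WT. Both groups come from stock BDSC #25710, which carries a nos-phiC31 integrase transgene on an X chromosome marked with y, sc, v and sev and a CaryP landing site at attP2. Zeus KO flies descend from embryos injected with 2 guide RNAs and Cas9 protein and carry small frameshift indels in the coding sequence of Zeus (CG9573) that give an early stop codon. The age of the flies, and whether the Zeus KO libraries come from 1 line, are not stated, and the testes had been stored in PBS for 1 to 2 days.

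An aminoacyl-tRNA synthetase joins an amino acid to the tRNAs whose anticodons read its codons, the step that sets the genetic code. The enzymes fall into a pair of unrelated structural classes, I and II. Mitochondria translate the few proteins of their own genome with a separate set of tRNAs, and the enzymes that charge these are encoded in the nucleus and imported. In animals, some of the cytosolic enzymes are held together in a multi-synthetase complex. In fly spermatogenesis, mitochondria fuse and are rebuilt along the growing sperm tail.

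Sequencing gave 12533272 to 18846182 reads in the Zeus KO libraries and 13593449 to 16086598 in the control libraries. The deposited values are group means, from which the reads of each library were recovered as whole numbers. A recovered library carries no replicate number, so it is named the largest, middle or smallest library of its group by its size factor, the scaling for depth. Values per library are given in that order as normalized reads, that is, reads divided by the size factor. All 33 synthetase genes had a single solution and were tested, with between 20 and 15239 reads in a library. Zeus itself, listed as Rcd-1r, had 269, 269 and 328 normalized reads in Zeus KO, against 319, 338 and 380 in control. Its log2 fold change was -0.26 (SE 0.131), with an adjusted p of 0.314 in limma. The alleles are small indels, so reads from them are still counted and the level of Zeus RNA is no check of the knockout. The first principal component over all genes tested held 52.3% of the variance and separated the groups. Over all genes tested, 2.09% were called higher and 1.91% lower in Zeus KO. Markers of spermatogonia, spermatocytes, spermatids and cyst cells were all listed, and of the 14 that could be tested 0 were called. Those of the accessory gland had a sum of group means of 59040 in Zeus KO and 92950 in control, with 2 of 4 tested genes called lower, and those of the gut had 11930 in Zeus KO and 22140 in control, with 3 of 5 called lower. Muscle markers summed to 6956 in Zeus KO and 4827 in control, with 1 gene called higher and 1 lower, and the 4 fat body markers are not listed. The part of these differences in the results on synthetase genes was not tested, and in whole organs fewer cells of a type cannot be told apart from less RNA per cell.

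Levels of different genes were compared per kilobase (kb) of exon, counting every annotated exon base of a gene. The coding share of these bases differs between genes. MetRS-m has 4314 exon bases with 1746 coding, and MetRS has 3403 with 3066. The order of genes and the gaps between them were examined for exon length only. The mitochondrial class held both the most and the least abundant of the synthetase genes, with a 433-fold range, against a 7.02-fold range in the cytosolic class. TrpRS-m, the mitochondrial tryptophan enzyme, averaged 6070 normalized reads per kb over the 6 libraries, the 98.4th percentile of the 11315 tested genes with an exon length. Of these genes, 181 were at or above it. The 73 genes without a single solution, which hold 18.3% of the normalized reads, were not ranked. CysRS-m, the mitochondrial cysteine enzyme, followed with 2403 reads per kb (93.3rd percentile). The third of the class was ValRS-m for valine with 600 reads per kb, and AspRS-m for aspartate and PheRS-m for phenylalanine had 325 and 301. These 5 were the mitochondrial genes above the median of all genes, 170 reads per kb. The other 10 lay between 94.3 reads per kb for MetRS-m and 14.0 for IleRS-m. Every library of PheRS-m was above every library of MetRS-m.

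In the cytosolic class, 15 of 18 genes were above the median of all genes. TrpRS had the highest level, 922 normalized reads per kb (82.0th percentile), followed by MetRS with 647. The lowest were ArgRS with 161, GluProRS, the fused enzyme for glutamate and proline, with 155, and ValRS with 131. When the cytosolic genes were ordered by level, 3 of 17 neighbours had libraries that did not overlap, namely TrpRS above MetRS, MetRS above SerRS, and AspRS above LysRS. Of the 14 neighbours in the mitochondrial order, 6 did not overlap. The ranges of the remaining neighbours in both orders overlapped. Some of these still kept their order within every library, such as AlaRS above GlyRS and IleRS above GlnRS.

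**Figure D1:**
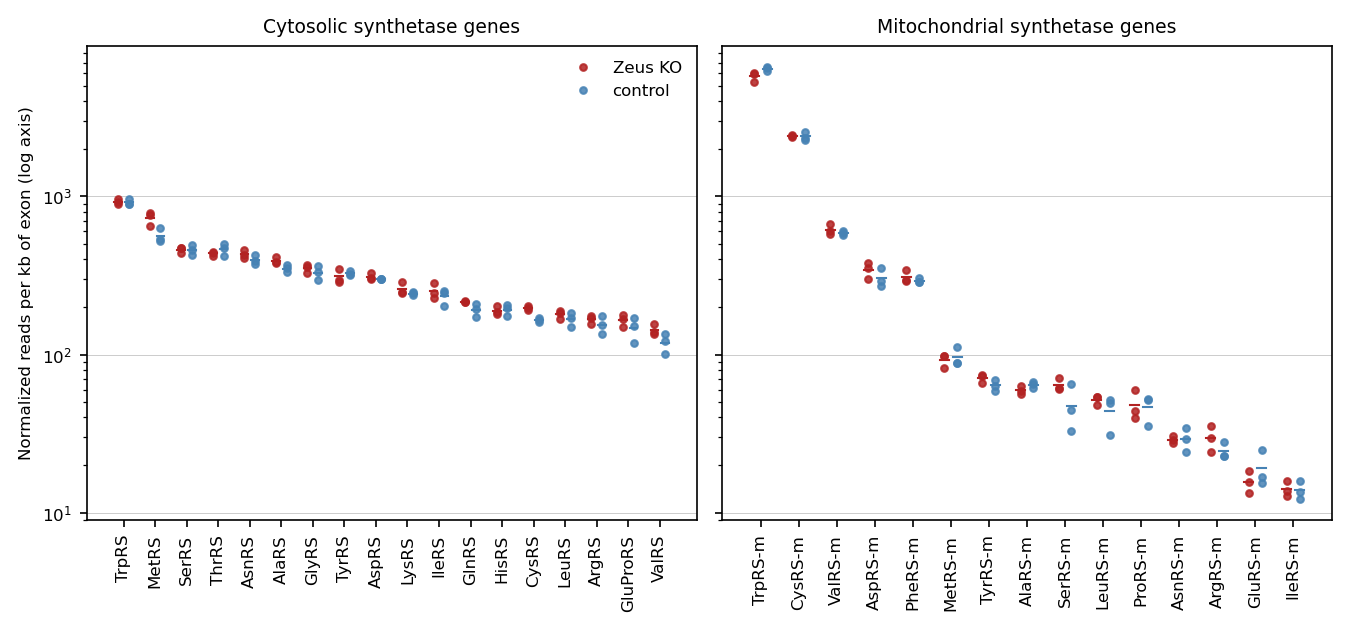
Normalized reads per kb of exon (log axis) of each synthetase gene, cytosolic on the left and mitochondrial on the right, ordered by level. Each point is 1 library, Zeus KO in red left of control in blue, and short lines are group means. On this scale, TrpRS-m (6070 reads per kb) and CysRS-m (2403) lie above all cytosolic genes. On the same scale, 10 mitochondrial genes lie below the mean of the lowest cytosolic gene, and levels per coding length were not compared.

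The synthetase genes with the most to show in level or change lie as follows in the Ensembl annotation of release 115, which has the coordinates of dm6. TrpRS-m (FBgn0036763) lies on chromosome 3L from 17849727 to 17852453 on the plus strand. CysRS-m (FBgn0033900) lies on 2R from 14159096 to 14161262 on the minus strand, and CysRS (FBgn0027091) on 2R from 16143147 to 16145906 on the plus strand. MetRS (FBgn0034401) lies on 2R from 18846858 to 18850599 on the minus strand. SerRS-m (FBgn0021750) lies on 3R from 15340667 to 15343218 on the plus strand. AlaRS (FBgn0027094) lies on 2L from 8378262 to 8381764 and GlnRS (FBgn0027090) on 3R from 25263267 to 25265721, both on the minus strand. ValRS (FBgn0027079) lies on 2R from 13198850 to 13202709 on the plus strand, and TrpRS (FBgn0010803) on 3R from 9265027 to 9266904 on the minus strand. The 33 genes are spread over the genome, with 6 genes on 2L, 8 on 2R, 10 on 3L, 6 on 3R and 3 on the X, and the 3 X-linked genes, ArgRS, HisRS and LysRS, are all cytosolic. GluRS-m and TyrRS lie on 3L on the same strand with 171 bases between them.

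The exons of 16 of the 33 genes share bases with those of another gene, and the authors do not state whether reads were counted by strand. Counting by strand would not separate overlaps on the same strand, which are those of HisRS (8.9% with Bx) and AspRS (6.8% with asRNA:CR43468). At least 10% of the exon bases are shared with 1 other gene in 5 members, whose values are therefore uncertain. These are AspRS (63.9% with the antisense RNA asRNA:CR45141), GluProRS (16.6% with asRNA:CR46092), CysRS-m (14.3% with CG13016), SerRS-m (13.9% with Nagk) and ArgRS-m (11.8% with mRpS9).

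For 14 enzyme pairs, the cytosolic and the mitochondrial gene for the same amino acid could be set side by side, with GluProRS used for glutamate and for proline. No gene with the suffix -m is listed for glycine, histidine, lysine, threonine or glutamine. In humans, the cytosolic glycine and lysine genes also make the mitochondrial enzymes, and in animal mitochondria the tRNA for glutamine is first charged with glutamate and then amidated.

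The mitochondrial gene was the higher of its pair in every library for cysteine, tryptophan and valine. CysRS-m was 12.2-fold above CysRS in Zeus KO and 14.6-fold in control, with 2407 against 197 reads per kb in Zeus KO and 2400 against 165 in control. TrpRS-m was 5.86-, 6.60- and 6.15-fold above TrpRS in the Zeus KO libraries and 7.30-, 6.47- and 7.17-fold in the control libraries. The groups overlapped in this ratio. ValRS-m was 4.29-fold above ValRS in Zeus KO and 4.94-fold in control.

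For aspartate, the genes were at like levels. AspRS-m was 1.11-fold above AspRS in Zeus KO and 1.01-fold in control, and the log2 ratio ran from -0.14 to 0.31 over the libraries.

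The cytosolic gene was the higher in every library of the other 10 pairs. The widest gaps were those of isoleucine, where IleRS was 17.7-fold above IleRS-m in Zeus KO and 16.7-fold in control, and of asparagine, where AsnRS was 14.9-fold above AsnRS-m in Zeus KO and 13.6-fold in control. Per kb of exon, the narrowest gaps were those of proline and leucine. They were 3.49-fold in Zeus KO and 3.18-fold in control for proline, and 3.45-fold in Zeus KO and 3.88-fold in control for leucine. Gaps per coding length were not computed, and most exon bases of MetRS-m are not coding.

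**Figure D2:**
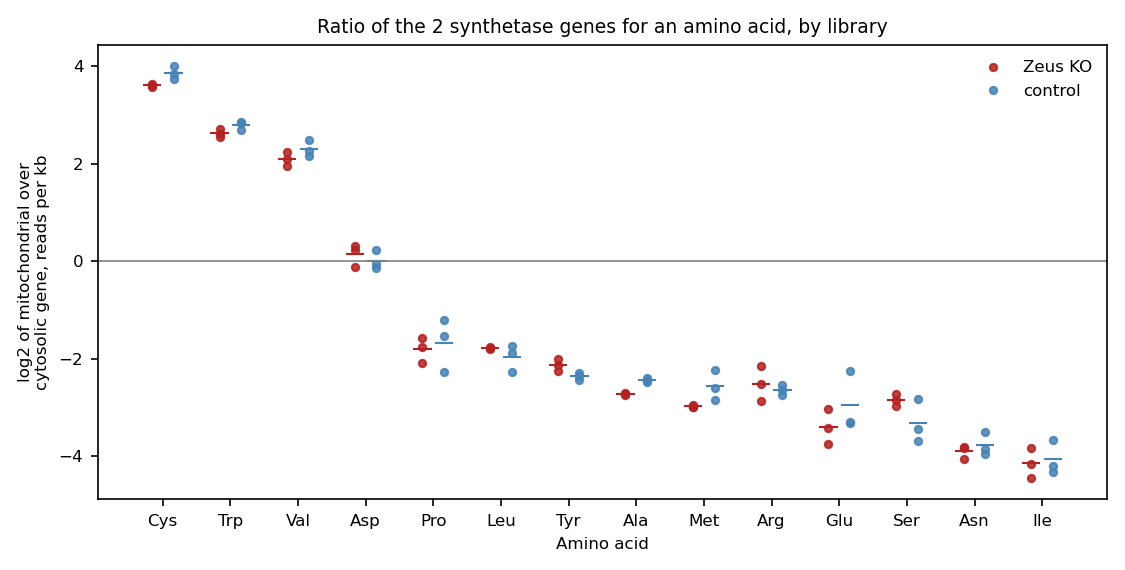
The log2 ratio of the mitochondrial over the cytosolic gene in reads per kb for each of 14 amino acids, with 1 point per library, Zeus KO in red left of control in blue, and lines at group means. Cysteine, tryptophan and valine lie above 0 in every library, aspartate lies around 0, and the other 10 lie below 0.

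The side of 0 on which a pair lay was the same in both groups for all 14 pairs. The log2 ratio of a pair differed between Zeus KO and control by -0.44 (glutamate) to 0.47 (serine). The groups overlapped in the ratio of each of these pairs, and GluRS-m had as few as 20 reads in a library. The ratios of Zeus KO and control libraries did not overlap in 4 of the 14 pairs, where 23.5% of all genes tested had levels that did not overlap. These were cysteine (a difference of -0.25), tyrosine (0.23), alanine (-0.29) and methionine (-0.42). In the methionine pair, the log2 ratio averaged -2.98 in Zeus KO and -2.56 in control, and Zeus KO and control libraries overlapped for MetRS-m but not for MetRS.

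Of the 33 synthetase genes, 0 were called between Zeus KO and control under the limits used here (adjusted p below 0.05, and 1.5-fold or more in size) in limma's moderated test, with Benjamini-Hochberg adjustment over all 11404 genes tested. Of all genes tested, 4.0% were called, 238 higher (2.09%) and 218 lower (1.91%) in Zeus KO. With weights from voom in place of equal weights, the number of synthetase genes called was also 0. An unadjusted p under 0.05 was found for 3 of the 33, against 18.9% of all genes tested. The 95% confidence interval of the fold change lay within 1.5-fold in both directions for 28 of 33 genes. The 5 genes whose intervals reached beyond were MetRS, SerRS-m, LeuRS-m, ArgRS-m and GluRS-m, so a change of that size was not excluded for them.

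The libraries of Zeus KO and control did not overlap in 5 of 33 synthetase genes, MetRS, CysRS, GlnRS and AlaRS with higher values in Zeus KO and TrpRS-m with lower values. Over all genes tested this share was 23.5%.

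MetRS, which charges both the initiator and the elongator methionine tRNAs, had 2219, 2579 and 2655 normalized reads in Zeus KO, against 2160.3, 1773 and 1815 in control. Every Zeus KO library was above every control library, and the lowest Zeus KO library lay close to the highest control library. The log2 fold change was 0.38 (SE 0.110), with an unadjusted p of 0.0057 and an adjusted p of 0.0839 in limma, the lowest of the 33. Leaving out the largest Zeus KO or the largest control library gave log2 fold changes of 0.46 and 0.47 with adjusted p of 0.0317 and 0.0269, still under the fold limit. The adjusted p over the 14 alternative fits ran up to 0.325. Its partner MetRS-m had 355, 422 and 423 normalized reads in Zeus KO, against 381.5, 479 and 382 in control, with overlapping groups.

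CysRS had 498, 481 and 469 normalized reads in Zeus KO, against 403, 392 and 419 in control. The groups did not overlap, and the log2 fold change was 0.26 (SE 0.104), with an unadjusted p of 0.032 and an adjusted p of 0.217 in limma. CysRS-m had 5122, 5085 and 5012 normalized reads in Zeus KO, against 4957, 5412 and 4810.4 in control, a log2 fold change of 0.01 with an interval from -0.19 to 0.20.

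SerRS-m, the mitochondrial serine enzyme, had 155, 156 and 181 normalized reads in Zeus KO, against 84.2, 166 and 115 in control. The middle control library lay inside the Zeus KO range, and the other control libraries lay below it. Its log2 fold change of 0.48 (SE 0.22) was the largest of the 33, with an unadjusted p of 0.0499 and an adjusted p of 0.264 in limma. The value was 0.25 without the largest control library and 0.73 without the middle control library. Nagk, which shares exon bases with it on the other strand, averaged 2809 normalized reads in Zeus KO and 2815 in control. SerRS had 906, 839 and 896 normalized reads in Zeus KO, against 811, 874 and 934 in control, and the groups overlapped.

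**Figure D3:**
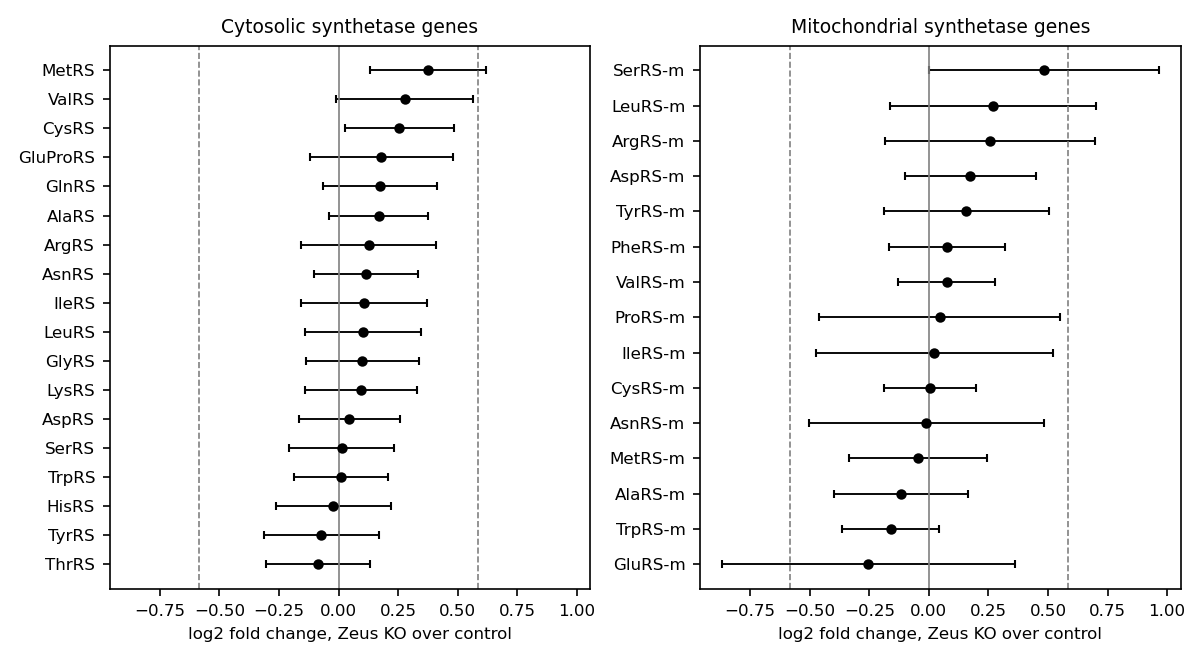
Zeus KO over control, as a log2 fold change, for each synthetase gene, with its 95% confidence interval from limma, cytosolic genes on the left and mitochondrial genes on the right. Dashed lines mark a fold change of 1.5 in each direction. Point estimates run from -0.09 to 0.38 in the cytosolic class and from -0.25 to 0.48 in the mitochondrial class, and none passes a dashed line.

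Among the other cytosolic genes, GlnRS for glutamine had 532, 527 and 526 normalized reads in Zeus KO, against 509, 426 and 474 in control. The Zeus KO libraries lay close together, just above the highest control library, and the log2 fold change was 0.17 (SE 0.109), with an adjusted p of 0.431 in limma. Without the middle control library it was 0.10. AlaRS for alanine had 1244, 1270.3 and 1354 normalized reads in Zeus KO, against 1151, 1086 and 1207 in control, also with no overlap, and a log2 fold change of 0.17 (SE 0.0942), with an adjusted p of 0.366. AlaRS-m had 182, 189.6 and 205 in Zeus KO, against 215, 198 and 212 in control. It leaned the other way from AlaRS, with overlapping groups.

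ValRS had 461, 533 and 476 normalized reads in Zeus KO, against 461, 344 and 413 in control. The groups met at their largest libraries, and the log2 fold change was 0.28 (SE 0.131), with an adjusted p of 0.282 in limma. Without the middle control library it was 0.16 (adjusted p 0.636). ValRS-m had 1874, 1972 and 2162 in Zeus KO, against 1959, 1846 and 1894 in control, with overlap. TrpRS had 1504, 1543 and 1621 in Zeus KO, against 1512, 1616 and 1509.6 in control, a log2 fold change of 0.01 with an interval from -0.19 to 0.21.

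TrpRS-m had 12979.6, 14994 and 14675 normalized reads in Zeus KO, against 16241, 15403 and 15921 in control. Each Zeus KO library lay below each control library, and the log2 fold change was -0.16 (SE 0.0927), with an adjusted p of 0.387 in limma. It was -0.016 (adjusted p 0.956) with quantile normalization and -0.096 without the largest Zeus KO library, with adjusted p from 0.309 to 0.956 over the 14 alternative fits. TrpRS-m alone held 56.4%, 58.8% and 58.2% of the normalized reads of the mitochondrial class in the Zeus KO libraries and 61.7%, 60.1% and 62.3% in the control libraries. The sum over the class therefore follows this gene. It was 23021, 25493 and 25203 in Zeus KO and 26324, 25631 and 25566 in control, and without TrpRS-m it was 10041.5, 10499.6 and 10528 in Zeus KO and 10083, 10229 and 9645 in control, with overlap.

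The less abundant mitochondrial genes had wider errors. LeuRS-m had 145, 164 and 162 normalized reads in Zeus KO, against 156, 93.7 and 150.0 in control, and a log2 fold change of 0.27 (SE 0.197), which was 0.036 without the middle control library. ArgRS-m had 66.6, 97.5 and 81.1 in Zeus KO, against 62.9, 77.0 and 63.2 in control, and a log2 fold change of 0.26 (SE 0.201), which was 0.12 without the middle and 0.39 without the largest Zeus KO library. IleRS-m, the lowest of all per kb, had 46.2, 39.6 and 37.2 in Zeus KO, against 39.4, 46.2 and 35.5 in control. The groups overlapped in all of these, and their adjusted p in limma was at least 0.509. Their cytosolic partners overlapped too: LeuRS had 659.7, 737 and 719 in Zeus KO, against 672, 585 and 715 in control. ArgRS had 376, 335 and 363 in Zeus KO, against 328, 374 and 287 in control. IleRS had 882, 952 and 1098 in Zeus KO, against 979, 792 and 952 in control.

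The other 14 synthetase genes, 8 cytosolic and 6 mitochondrial, had log2 fold changes between -0.25 for GluRS-m and 0.18 for GluProRS, and the groups overlapped in each. Without the middle control library these extremes were -0.053 for GluRS-m and 0.034 for GluProRS. ThrRS and TyrRS were the lowest of the cytosolic class at -0.09 and -0.07. The coefficient of variation within a group had a median of 5.98% in Zeus KO and 8.43% in control for the cytosolic genes, and of 8.69% in Zeus KO and 13.4% in control for the mitochondrial genes.

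In the cytosolic class, 15 of 18 genes had a log2 fold change above 0, with a median of 0.11, and in the mitochondrial class 10 of 15, with a median of 0.05. Over all genes tested, 49.9% were above 0 and the median was -0.0005. The sum over the cytosolic class was 15887.5, 16215 and 16535 normalized reads in Zeus KO and 15347, 14117.5 and 15358 in control. All Zeus KO libraries were above all control libraries, by little except for the middle control library. In that library 12 of the 18 cytosolic genes had their lowest value of the 6 libraries, and its median deviation from the mean of a gene was -0.15 on the log2 scale. In the other control libraries the median deviation was -0.02 and -0.01, and in Zeus KO it was 0.05, 0.03 and 0.08. Without that library the cytosolic median was 0.041, with 15 of 18 genes above 0, and the mitochondrial median was 0.063, with 11 of 15 above 0, so the order of the class medians turned round. In the mitochondrial class the same library deviated by a median of 0.04 and held the lowest value of 5 and the highest value of 4 of the 15 genes.

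The same control library also differed in its markers. The 3 spermatid markers solved per library summed to 50040, 39890 and 40510 normalized reads in Zeus KO and 40850, 60380 and 47710 in control, and the 4 accessory gland markers to 30890, 21050 and 23920 in Zeus KO and 34610, 44910 and 38840 in control. The 3 spermatogonial markers summed to 1604, 1941 and 1940 in Zeus KO and 1877, 1560 and 1666 in control. The gut markers summed to 12420, 12970 and 10390 in Zeus KO and 22140, 23060 and 21220 in control, and the muscle markers to 6404, 7315 and 7150 in Zeus KO and 5255, 4167 and 5059 in control. The middle control library was the highest of the 6 for spermatid, accessory gland and gut markers and the lowest for spermatogonial and muscle markers. The margins were small for gut and spermatogonial markers. For spermatocyte markers (2312) and cyst cell markers (941) this library was neither the highest nor the lowest. The lowest were the middle Zeus KO library (2248) for spermatocytes and the largest Zeus KO library (893) for cyst cells. The part of these marker differences in the class values was not tested.

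**Figure D4:**
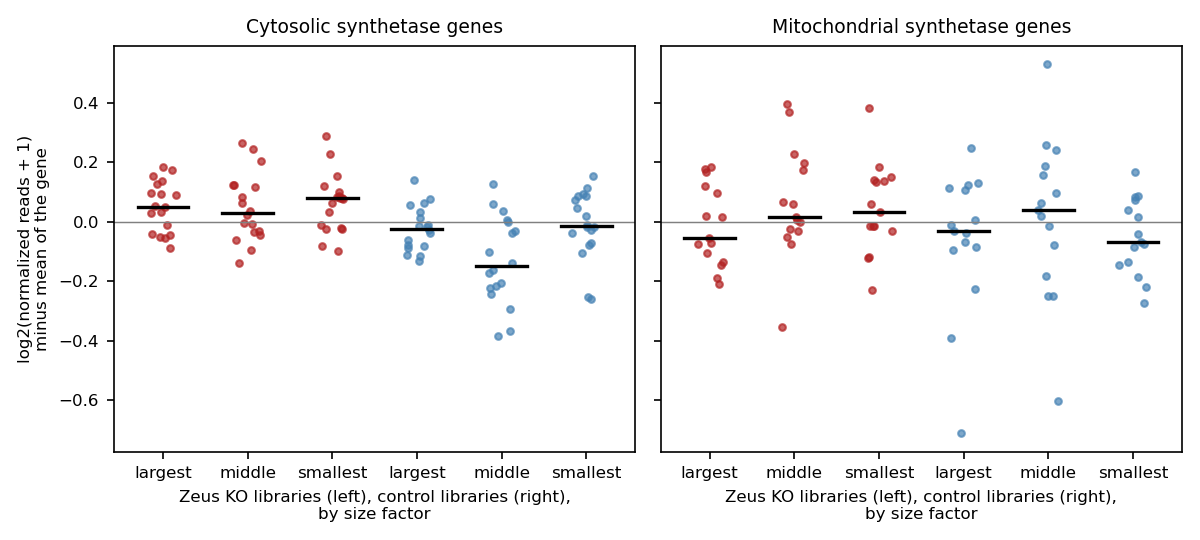
Deviation of each synthetase gene in each library from its mean over the 6 libraries, on the log2(normalized reads + 1) scale, with Zeus KO libraries left of control libraries and thick lines at medians. In the cytosolic panel the middle control library sits lowest, with a median of -0.15, and in the mitochondrial panel its median is 0.04.

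A further split followed known roles and was made after the values were seen. The 8 cytosolic enzymes that belong to the multi-synthetase complex in mammals (ArgRS, AspRS, GlnRS, GluProRS, IleRS, LeuRS, LysRS and MetRS) all had log2 fold changes above 0, between 0.04 and 0.38 with a median of 0.12. Of the other 10 cytosolic genes, 7 were above 0, with a median of 0.06. Without the middle control library these medians were 0.07 and 0.03. Of the 18 genes for class I enzymes, 14 were above 0 with a median of 0.11, and of the 14 genes for class II enzymes, 10 with a median of 0.06. Without the middle control library both class medians were 0.06. GluProRS, which joins an enzyme of each class, was left out of that split. The complex and the classes are described by these values only.

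Genes outside the symbol rule complete the set. The cytosolic phenylalanine enzyme is made of 2 subunits, alpha-PheRS and beta-PheRS, whose log2 fold changes were 0.04 and 0.14, and Slimp, a mitochondrial relative of the serine enzymes, had -0.03. None of the 3 was called, and over all genes tested the share called was 4.0%. The scaffold proteins of the multi-synthetase complex, AIMP1, AIMP2 and AIMP3, were also not called, with log2 fold changes of 0.09, -0.17 and -0.14. AIMP2 was the one whose libraries did not overlap, with 778, 770.1 and 712 normalized reads in Zeus KO, against 806, 936 and 811 in control. Of the amidotransferase that makes the mitochondrial glutamine tRNA, GatA and GatB were not called, and GatC is not listed.

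Of the 5 cytosolic elongation factors tested, 0 were called, where 4.0% of all genes tested were called. eEF1alpha2, 1 of the factors that bring charged tRNAs to the ribosome, had 199, 235 and 206 normalized reads in Zeus KO, against 179, 129.7 and 184 in control. Its groups did not overlap, and its log2 fold change was 0.39 (SE 0.164), with an adjusted p of 0.234 in limma. Without the middle control library it was 0.23 (adjusted p 0.566). For eEF1alpha1 and eEF2 no single solution was found, and the authors' means were 46535 in Zeus KO and 44121 in control, and 23442 in Zeus KO and 21229.6 in control.

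Of the 8 mitochondrial translation factors listed, 0 were called, against 4.0% of all genes tested. mEFG1, the mitochondrial elongation factor that moves the ribosome along, had 364, 361 and 397 normalized reads in Zeus KO, against 335, 255 and 312 in control. Its log2 fold change was 0.32 (SE 0.131), with an adjusted p of 0.215 in limma, and without the middle control library it was 0.21.

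Over all genes tested, 2.09% were called higher and 1.91% lower in Zeus KO. Of the 15 genes of tRNA processing and modification, 1 was called higher and 0 lower. It was JhI-1, which encodes RNase Z, the enzyme that cuts the 3′ trailer from tRNA precursors. It had 141, 157 and 146 normalized reads in Zeus KO, against 112, 88.6 and 86.9 in control, and every Zeus KO library was above every control library. The log2 fold change was 0.63 (SE 0.162) with an adjusted p of 0.0476 in limma. The call was lost in 9 of 14 alternative fits, in which the adjusted p ran from 0.0551 to 0.196. These included the fits without any 1 of the Zeus KO libraries and without the middle or the smallest control library.

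Uncharged tRNAs set off a response to amino acid shortage through the kinase Gcn2. The list for this response also holds genes with roles outside it, among them Thor, PEK, eIF2alpha and eIF2gamma. Of its 9 genes, 1 was called lower and 0 higher, where 1.91% of all genes tested were called lower and 2.09% higher. Thor, the fly 4E-BP, which holds back cap-dependent translation, had 881, 880.4 and 902 normalized reads in Zeus KO, against 1409, 1433 and 1342 in control. Each group was tight, and all Zeus KO libraries lay below all control libraries. The log2 fold change was -0.65 (SE 0.0904), with an adjusted p of 0.00117 in limma, and the call held in all 14 alternative fits. Others of the list had values on the other side. AsnS, asparagine synthetase, which makes the amino acid rather than charging a tRNA, had 138, 168 and 166 in Zeus KO, against 98.0, 110.4 and 109 in control, with no overlap and a log2 fold change of 0.56 (SE 0.154), with an adjusted p of 0.0627. aay, a phosphoserine phosphatase of serine synthesis, had 1275, 1217 and 1231 in Zeus KO, against 1026, 1116 and 1067 in control, with a log2 fold change of 0.21 (SE 0.0914) and an adjusted p of 0.237. Gcn2 itself had a log2 fold change of 0.03 and crc, the fly ATF4, of -0.18, both with overlapping groups. The median of the list was 0.03.

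**Figure D5:**
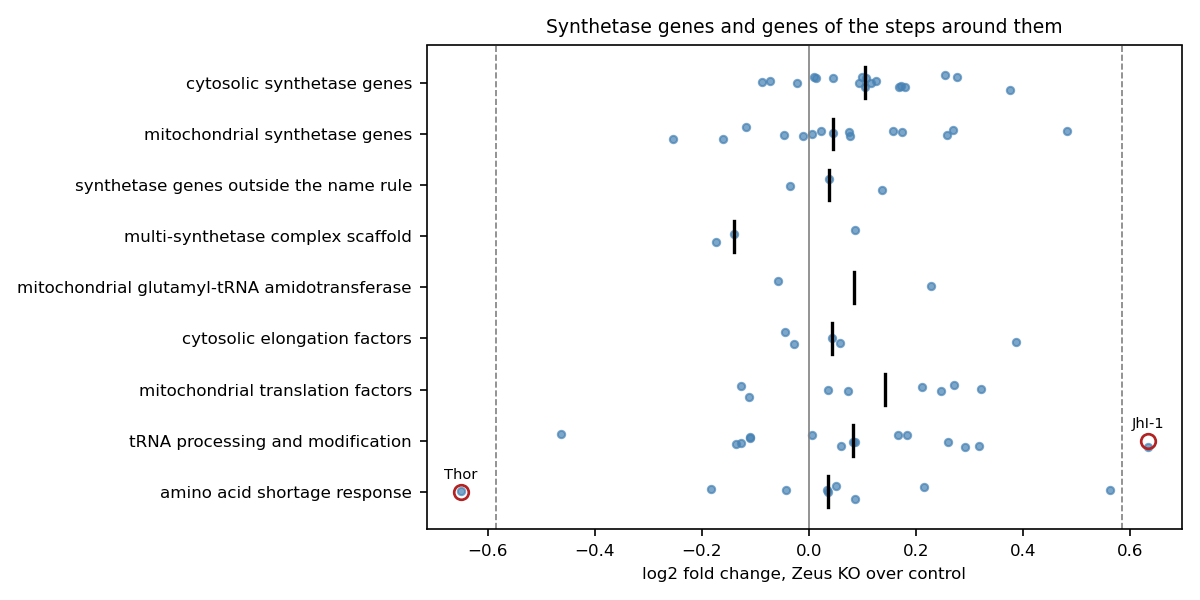
Zeus KO over control, as log2 fold changes, of the synthetase genes and of 7 lists of genes around them, with 1 point per gene and thick lines at medians. Dashed lines mark a fold change of 1.5, and red circles mark called genes: JhI-1 (0.63) and Thor (-0.65) are the genes called, and none of the synthetase genes is.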

How the data were processed

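The authors aligned reads to dm6 using STAR with its defaults and obtained read numbers per gene from featureCounts (versions, annotation release and strand setting not given in the sources used here). The deposited signal of a gene is the group mean of reads divided by size factors, without correction for length. Further deposited columns hold the authors' own comparison (fold changes, test statistics, p-values, calls) and were not used, nor were 2 columns of the FastQC summary with a value per library.

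Group means up to 60000 were solved for whole reads per library (relative tolerance 8e-15). In both groups, 11418 of 11491 genes (99.4%) had just 1 solution, and the 73 without hold 18.3% of the normalized reads. The solving and the fit were checked on simulated data with known answers. The fit called 107 of 108 genes changed by a log2 size of 1.0 and 92 of 92 changed by 1.5. Smaller changes were not simulated, so the check does not cover changes near the fold limit or of the size seen in synthetase genes.

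Genes with a mean of at least 1 were tested with limma 3.58.1 (R 4.3.3), with a trend, on log2(value + 1), a scale that understates changes of low genes, with no covariates. A call needed a Benjamini-Hochberg adjusted p below 0.05 and a change of 1.5-fold or more. The paper describes the libraries of each group as a biological triplicate. Which animals went into each library is not stated, and p-values weigh a difference of groups against the spread between these samples.

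The members and gene lists were chosen with earlier results of these data known. Values per library are given for members with an unadjusted p under 0.05, with groups that do not overlap, with the 3 largest absolute fold changes of a class, or highest or lowest per kb, and for their pair partners. Listed genes that were called or had an unadjusted p under 0.05 are named, and AIMP2, Gcn2 and crc were named after their values were seen. Alternatives were pseudocounts of 0.5 and 5, other filters, no trend, 2 other normalizations, voom weights, other call limits and each library left out. Promoter motifs had been planned and were not analysed here.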

Additional observations from a re-analysis of the deposited data

How the results depend on the processing

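No synthetase gene was called under any of the 14 alternative fits or the 2 other call limits. The number of all genes called, 456, ran from 301 to 564 when 1 library was left out, the lowest without the smallest control library, and from 433 to 586 otherwise. The cytosolic median of 0.11 ran from 0.041 (without the middle control library) to 0.16 when 1 library was left out, and from 0.07 to 0.12 otherwise. The mitochondrial median of 0.05 ran from 0.01 to 0.09. Of 462 values of members under an alternative, 25 changed sign, in 8 genes whose log2 fold changes all lay within 0.05 of 0. Quantile normalization gave 0.016 for AsnRS-m and -0.00024 for SerRS. Centring the libraries on their medians, which moves the median of all genes to -0.03, gave -0.027 for CysRS-m, -0.0093 for IleRS-m, -0.020 for SerRS and -0.023 for TrpRS. With 1 library left out, the log2 fold change ran from -0.14 to 0.11 for AsnRS-m, from -0.030 to 0.055 for CysRS-m, from -0.086 to 0.028 for HisRS, from -0.063 to 0.12 for IleRS-m, from -0.10 to 0.063 for MetRS-m, from -0.14 to 0.17 for ProRS-m, from -0.039 to 0.063 for SerRS and from -0.020 to 0.042 for TrpRS. AsnS was past the limits without the largest Zeus KO library (log2 fold change 0.66, adjusted p 0.0426 in limma). The causes were not tested. No paired analysis was possible because the solved libraries carry no replicate number and none was inferred from their size factors. Precision was limited by 3 libraries a group and, in the least abundant mitochondrial genes, by read numbers as low as 20. Whether reads were counted by strand is not stated.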
